A study of Mus musculus with 8 samples.

Results

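The Krüppel-like factors are DNA-binding proteins with zinc fingers at their C-terminal end, and they bind GC-rich and CACCC-type sequence. The 10 members described here are Klf2, Klf3, Klf4, Klf5, Klf6, Klf9, Klf10, Klf13, Klf15 and Klf17. They were taken by name, as every array probe whose RefSeq accession joins to 1 of these symbols, which gave 11 probes of the 55681 on the array and 10 genes of the 20660 that could be named. Klf17 had 2 probes and every other member had 1. All 10 genes passed the filter on dim probes, against 14601 named genes in all. In mouse, Klf2, Klf4 and Klf5 are known for sustaining the naive pluripotent state of embryonic stem cells, with overlapping roles, and Klf5 is also needed in the embryo for the blastocyst to form properly. Klf17 was first described as a gene of germ cells and is read in oocytes and early cleavage embryos. The other members are better known from differentiated tissues, where several are switched on by hormones, growth factors or stress.

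RNA came from mouse morulae at embryonic day 3.0, after in vitro fertilisation and culture in KSOM medium. The P150KD embryos had received siRNA against P150 at the 1-cell stage, and the siControl embryos had received control siRNA in the same way, so both groups carry an injection and no uninjected embryos are compared here. P150 is the large subunit of CAF-1, the histone chaperone that assembles nucleosomes on newly copied DNA, and its gene is Chaf1a. Each of the 3 siControl and 5 P150KD arrays held RNA of 10 pooled embryos. The labels give no mouse strain and do not say whether the arrays came from separate collections, so each p-value rests on the spread between these samples alone, which may be technical. In pooled embryos fewer cells of a type and less RNA per cell cannot be told apart, and total RNA per embryo was not measured.

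Levels are given as log2 of the signal over the array's own 75th percentile, so that a level of 0 equals the percentile. A probe's brightness also depends on its sequence, so no level is set against that of another probe. A change is the mean of the P150KD arrays minus the mean of the siControl arrays, tested with limma, and a gene is said to have risen or fallen where its p-value, adjusted by the Benjamini-Hochberg method over all 30348 tested probes, was under 0.05. Of those probes, 13.8% passed (6.30% risen and 7.54% fallen), and of the named genes 17.0% passed (6.67% risen and 10.3% fallen). Of the probes that passed, 45.5% had risen with this scaling, 58.2% with quantile normalization and 91.6% when arrays were scaled to 10 housekeeping genes. The median change of all named genes was -0.23 with the 75th percentile and 0.42 with the housekeeping genes. The array slide had its 3 siControl arrays and P150KD replicate 1 in 1 column and P150KD replicates 2 to 5 in the other, and changes measured within the first column are given beside the results for the members and for the list genes that passed. With the column as a block, the estimate equals the change within the first column, so it sets P150KD replicate 1 alone against the 3 controls, and its p assumes that this array varies like the others.

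The targeted gene was checked first. Chaf1a read 2.18, 1.85 and 2.01 on the siControl arrays and -1.71, 0.29, -0.72, -1.69 and -0.47 on P150KD replicates 1 to 5. Every knockdown array lay below every control array, by 7.31-fold on average (log2 change -2.87 ± 0.48 SE, limma adjusted p = 0.011), and the change was -3.72 within the first slide column (adjusted p = 0.0523 with the column as a block).

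Of the 10 Krüppel-like factors, 2 rose (Klf2 and Klf17), 2 fell (Klf6 and Klf15) and 6 did not pass the test, so 4 of 10 changed beside 17.0% of all named genes. The groups did not overlap in 5 of 10 members, the 4 that passed and Klf4, beside 31.9% of named genes. The median change of the 10 members was 0.29, and that of all named genes was -0.23. The sign of the members' median was not stable: it was -0.19 without siControl replicate 3, -0.15 when blocking on the slide column and -0.065 with array weights. The members had been chosen with results of these data known, so the counts are descriptions of these genes.

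**Figure D1:**
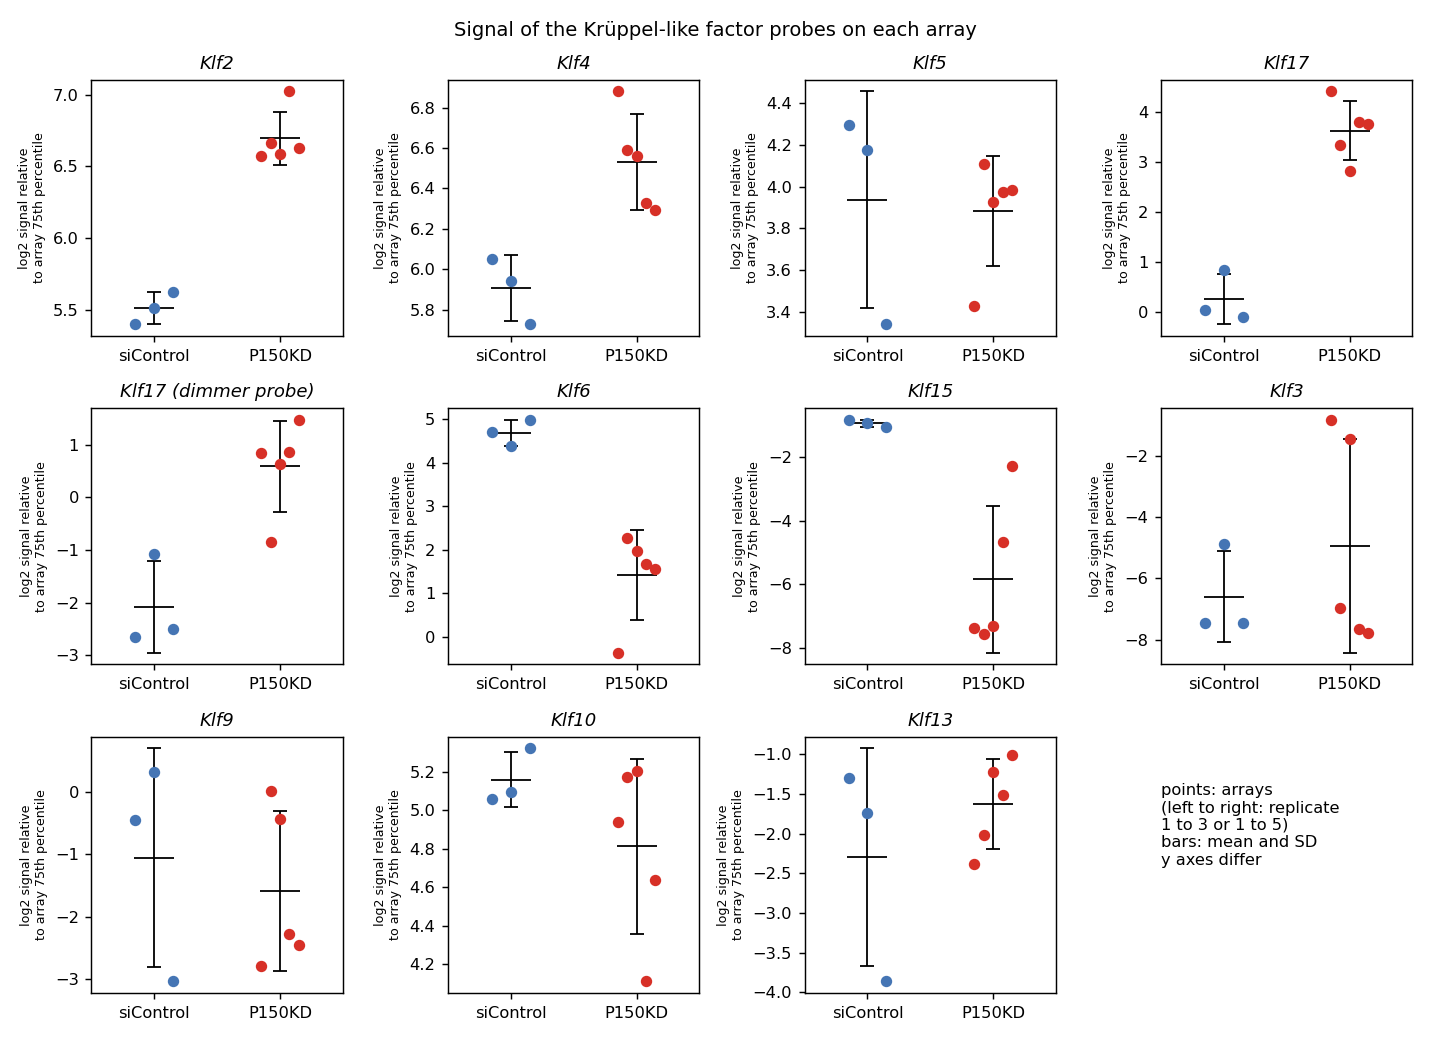
Level of each probe of the 10 Krüppel-like factors on each array, as log2 of signal over the array's 75th percentile, with siControl and P150KD arrays side by side and bars for the mean and SD. The Klf2 and Klf17 arrays of P150KD all sit above siControl, the Klf6 and Klf15 arrays all sit below it, and the Klf5, Klf9, Klf10 and Klf13 groups overlap.

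The 250 bases before the transcription start are shown for the 4 members that changed, as RefSeq gives them on the GRCm38.p6 assembly, 5′ to 3′ in the direction of the gene, because Krüppel-like factors bind GC-rich and CACCC-type sequence and can act on one another's genes. Capitals mark matches to CCNCNCCC on either strand, including matches that overlap. The intervals are chr8:72318812-72319061 on the plus strand for Klf2, chr4:117765667-117765916 on the minus strand for Klf17, chr13:5861239-5861488 on the plus strand for Klf6 and chr6:90462326-90462575 on the plus strand for Klf15.
Klf2: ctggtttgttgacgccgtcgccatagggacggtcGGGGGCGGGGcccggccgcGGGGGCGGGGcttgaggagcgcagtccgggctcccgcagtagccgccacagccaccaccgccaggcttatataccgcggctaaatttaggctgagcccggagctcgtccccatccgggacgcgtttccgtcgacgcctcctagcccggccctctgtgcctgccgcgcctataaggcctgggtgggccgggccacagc
Klf17: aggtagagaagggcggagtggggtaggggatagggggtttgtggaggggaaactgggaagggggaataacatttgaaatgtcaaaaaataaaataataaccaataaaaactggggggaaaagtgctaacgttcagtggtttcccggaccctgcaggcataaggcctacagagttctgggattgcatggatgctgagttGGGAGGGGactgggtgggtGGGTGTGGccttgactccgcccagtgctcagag
Klf6: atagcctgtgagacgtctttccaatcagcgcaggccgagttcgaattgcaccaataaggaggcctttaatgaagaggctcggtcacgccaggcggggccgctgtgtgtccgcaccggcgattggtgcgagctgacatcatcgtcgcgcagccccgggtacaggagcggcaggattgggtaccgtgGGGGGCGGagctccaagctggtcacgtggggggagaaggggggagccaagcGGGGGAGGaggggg
Klf15: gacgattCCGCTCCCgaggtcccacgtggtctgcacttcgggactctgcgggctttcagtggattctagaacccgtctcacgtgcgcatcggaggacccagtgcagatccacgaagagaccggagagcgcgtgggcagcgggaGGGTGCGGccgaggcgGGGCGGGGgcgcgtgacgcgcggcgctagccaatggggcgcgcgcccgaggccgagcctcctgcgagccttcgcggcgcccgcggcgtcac

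The promoters of the 4 genes were not alike in base composition. The Klf17 stretch held 4 CpG dinucleotides, below the median of 6 over all 32851 RefSeq promoters of this length, while those of Klf2, Klf6 and Klf15 held 29, 21 and 37. CCNCNCCC, searched on both strands, was found 4 times in the Klf2 stretch, 3 times in that of Klf15 and 2 times in each of Klf6 and Klf17. Of the 8 members with a promoter in the table, 7 held it at least once, beside 45.9% of all promoters. Its stricter form CCACACCC, whose matches are all matches of CCNCNCCC too, was held by Klf17 alone of the 8, beside 3.2% of all promoters. TTCCNGGAA, a form of the site that STAT proteins recognise, was in 0 of 8 and in 0.913% of all promoters. CCNCNCCC is itself rich in C, and the shares over all promoters were not matched for base composition. Of the 8 members, all but Klf17 held more CpG than the median, from 18 in Klf9 to 37 in Klf15. A match is a description of the letters and does not show binding.

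Klf2, an activator downstream of MEK5 and ERK5 signalling that supports ground-state pluripotency, rose (NM_008452). It read 5.40, 5.51 and 5.62 on the siControl arrays and 6.57, 6.66, 6.59, 7.02 and 6.63 on the P150KD arrays. The knockdown arrays were all higher, 4 of them within a narrow range and replicate 4 above the rest. The change was 1.18 ± 0.17 (SE), or 2.27-fold, with a limma adjusted p of 0.00716. Without P150KD replicate 4 it was 1.10 (adjusted p = 0.0158). Within the first slide column it was 1.06, and with the column as a block the adjusted p was 0.124.

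Klf17, the germ cell and early embryo member, rose. Its brighter probe read 0.04, 0.83 and -0.11 on the siControl arrays and 4.41, 3.34, 2.82, 3.80 and 3.75 on the P150KD arrays, a change of 3.37 ± 0.39 (SE) or 10.4-fold (limma adjusted p = 0.00388). Its dimmer probe read -2.66, -1.07 and -2.50 against 0.84, -0.85, 0.63, 0.86 and 1.47, a change of 2.67 ± 0.58 (SE) or 6.35-fold (limma adjusted p = 0.025). On both probes every knockdown array was above every control array. Within the first slide column the changes were 4.16 and 2.92, with adjusted p-values of 0.0254 for the brighter and 0.191 for the dimmer probe with the column as a block. They rest on P150KD replicate 1, the highest of the 5 on the brighter probe. The dimmer probe also did not pass without siControl replicate 1 (adjusted p = 0.0941) or 3 (0.0859), or without P150KD replicate 1 (0.0549), 3 (0.0514) or 4 (0.0568).

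Klf4, the reprogramming factor downstream of LIF and STAT3, read 6.05, 5.94 and 5.73 on the siControl arrays and 6.88, 6.59, 6.56, 6.33 and 6.30 on the P150KD arrays. The groups did not overlap, with a change of 0.62 ± 0.20 (SE; 95% interval 0.17 to 1.08), but the limma adjusted p of 0.0754 missed the threshold. This call depended on the settings: the adjusted p was 0.0147 with quantile normalization, where the change was 0.89, and 0.0032 with housekeeping scaling, where it was 1.28. It was 0.0462 among probes above background on all 8 arrays and 0.0243 with a trended and robust variance. Within the first slide column the change was 0.97 (adjusted p with the column as a block, 0.141).

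Klf5, the member needed for trophectoderm and inner cell mass of the blastocyst, read 4.30, 4.17 and 3.34 on the siControl arrays and 3.43, 4.11, 3.93, 3.97 and 3.98 on the P150KD arrays. The groups overlapped, the change was -0.05 ± 0.28 (SE), and its 95% interval of -0.70 to 0.59 leaves room for a moderate change either way (limma adjusted p = 0.917). The lowest control array, replicate 3, and the lowest knockdown array, replicate 1, set most of the spread. Its sign turned to 0.19 with quantile normalization, to 0.60 with housekeeping scaling and to 0.06 without P150KD replicate 1. Within the first slide column it was -0.51.

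**Figure D2:**
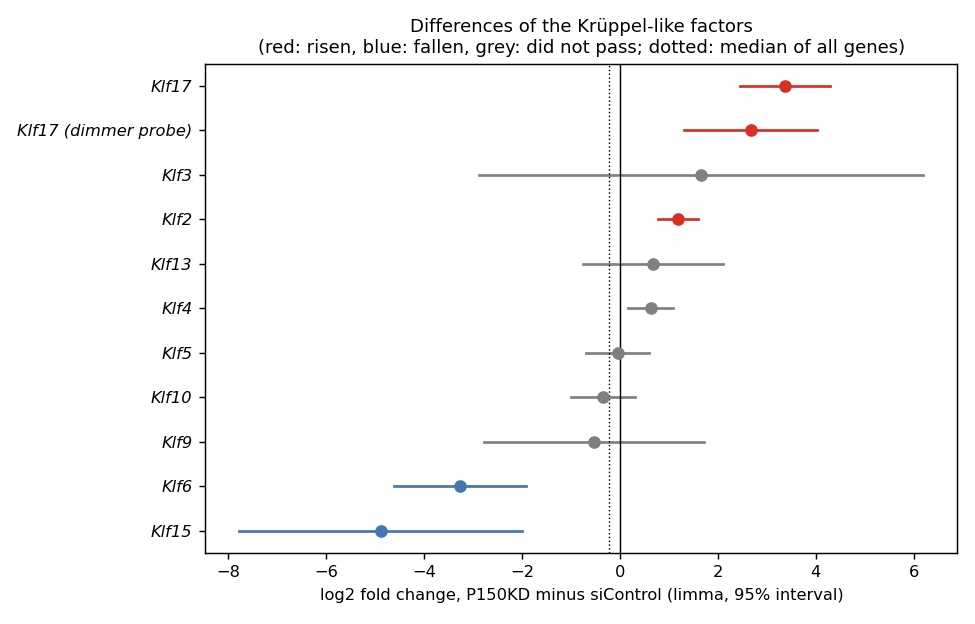
Change of each probe as log2, P150KD minus siControl, with its 95% interval from limma. Risen probes are red, fallen probes blue and the others grey, and the dotted line is the median of all named genes. The intervals of Klf2, Klf17, Klf4, Klf6 and Klf15 lie on 1 side of 0, and that of Klf4 belongs to a gene that missed the adjusted threshold.

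To ask whether Klf2, Klf4, Klf5 and Klf17 moved by unequal amounts, their signals were set against each other within each array. Klf17 was read by its brighter probe alone. A ratio of signals within an array does not depend on the scaling, and its change shows unequal change of the 2 genes. In the 6 pairs the exact permutation test over the 56 splits of the arrays, two-sided, can give no p below 0.0357. The log2 ratio, P150KD minus siControl, differed by -2.19 for Klf2 over Klf17, by -2.75 for Klf4 over Klf17 and by -3.42 for Klf5 over Klf17, each at that smallest p and each with no overlap between groups. With the dimmer Klf17 probe the groups overlap for Klf2 over Klf17 and for Klf4 over Klf17. There P150KD replicate 2 lies above siControl replicate 2, and ratios with that probe were not tested. The difference for Klf2 over Klf5 was 1.24, also at that smallest p and without overlap. That for Klf2 over Klf4 was 0.56 (exact p = 0.0714) and that for Klf4 over Klf5 was 0.67 (exact p = 0.107), both with overlapping groups. Adjusted over the 6 pairs by Benjamini-Hochberg, the 4 smallest exact p-values became 0.0536 and none passed 0.05, so the pairs are reported as not passing. With 4 of 6 pairs at the smallest exact p, no lower adjusted value was possible. The adjusted p-values therefore do not measure how far apart the groups were. Within the first slide column the difference was 1.57 for Klf2 over Klf5 and -3.19 for Klf4 over Klf17.

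**Figure D3:**
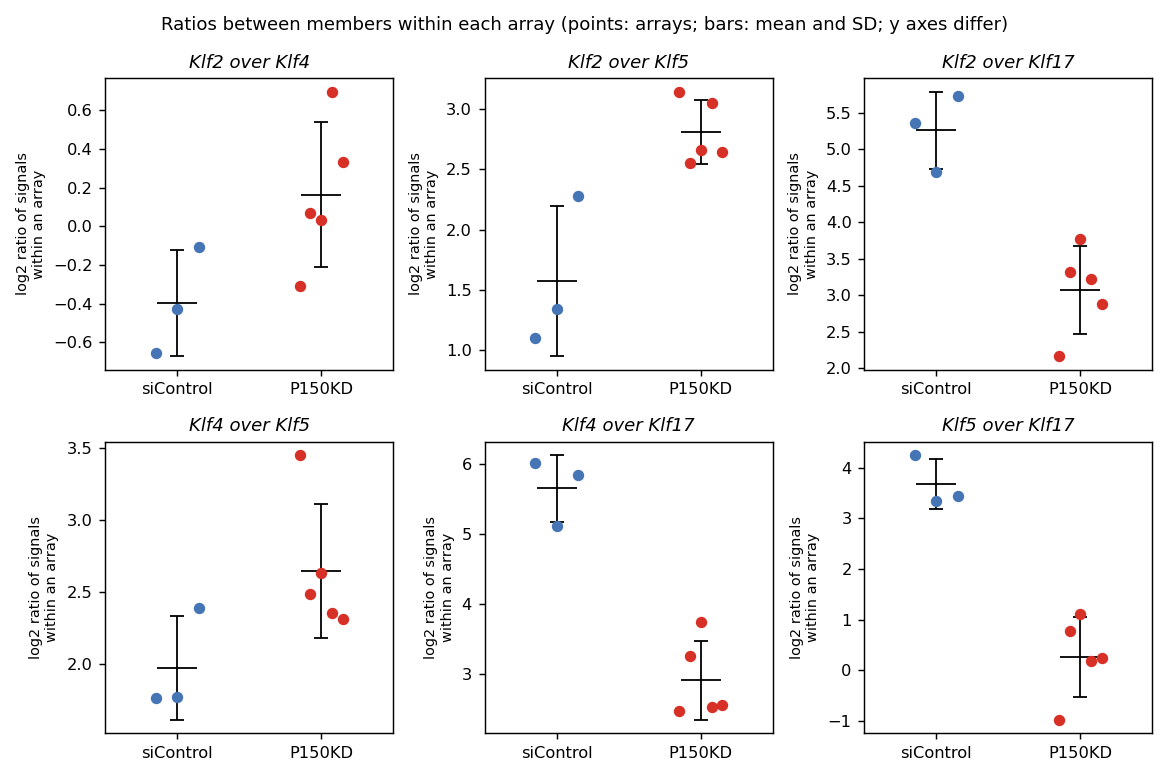
Log2 ratio of the signals of 2 members within each array, for the 6 pairs of Klf2, Klf4, Klf5 and Klf17, with bars for the mean and SD (the vertical axes differ). Klf17 is read by its brighter probe. The siControl and P150KD arrays are apart in the 3 pairs with Klf17 and in Klf2 over Klf5, and overlap in Klf2 over Klf4 and Klf4 over Klf5.

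Klf6, a widely expressed member that is induced early after injury and growth signals, fell. It read 4.71, 4.38 and 4.97 on the siControl arrays and -0.37, 2.28, 1.96, 1.66 and 1.55 on the P150KD arrays. All 5 knockdown arrays were below all 3 controls, and replicate 1 was the lowest. The change was -3.27 ± 0.58 (SE), or 9.66-fold lower, with a limma adjusted p of 0.0133. Without P150KD replicate 1 it was -2.83 (adjusted p = 0.00531), and within the first slide column, where replicate 1 is the only knockdown array, it was -5.06 (adjusted p = 0.0117 with the column as a block). The call was lost without siControl replicate 1 (adjusted p = 0.0523).

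Klf15, known for its part in glucose and amino acid metabolism under glucocorticoids, fell on dim signals. It read -0.84, -0.93 and -1.06 on the siControl arrays, each well above background. On the P150KD arrays it read -7.35, -7.56, -7.30, -4.67 and -2.30, and only replicates 4 and 5 were well above background, so the 3 lowest values carry no order. The fitted change was -4.89 ± 1.24 (SE; limma adjusted p = 0.0401), and it was -2.77 with normexp background correction (adjusted p = 0.0102). Its size is set largely by the values not well above background, so no fold is given. The call was lost without any single array other than P150KD replicate 5, at adjusted p from 0.0618 without P150KD replicate 4 to 0.117 without siControl replicate 1. It was lost too with housekeeping scaling (0.0655). Blocking on the slide column gave -6.41 (0.16), which rests on replicate 1, an array where Klf15 was not well above background.

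Klf10, which TGF-beta induces early, read 5.06, 5.10 and 5.32 on the siControl arrays and 4.94, 5.17, 5.21, 4.11 and 4.64 on the P150KD arrays. The groups overlapped and the change of -0.35 ± 0.28 (SE) did not pass (limma adjusted p = 0.445), and it was -0.22 within the first slide column and 0.31 with housekeeping scaling. Klf9, a target of steroid and thyroid hormone, read -0.46, 0.32 and -3.04 against -2.79, 0.01, -0.44, -2.29 and -2.45. The groups overlapped, with a change of -0.53 ± 0.96 (SE; limma adjusted p = 0.743) that housekeeping scaling turned to 0.12, and it was -1.73 within the first slide column. Klf13, a repressor that recruits SIN3A as Klf9 and Klf10 do, read -1.30, -1.73 and -3.86 against -2.38, -2.02, -1.23, -1.51 and -1.01. Its change of 0.67 ± 0.61 (SE) did not pass (limma adjusted p = 0.502) and was -0.08 when blocking on the slide column. Klf3, a repressor that works through CtBP, was well above background on 1 of 3 siControl and 2 of 5 P150KD arrays, so its readings of -7.46, -4.87 and -7.45 against -0.83, -6.97, -1.45, -7.66 and -7.78 include 5 that were not well above background (change 1.66 ± 1.95 SE, limma adjusted p = 0.603, and 5.76 within the first slide column). None of these 4 members can be called unaltered from these arrays, since the intervals reach from -1.01 to 0.31 for Klf10 and from -2.88 to 6.19 for Klf3.

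**Figure D4:**
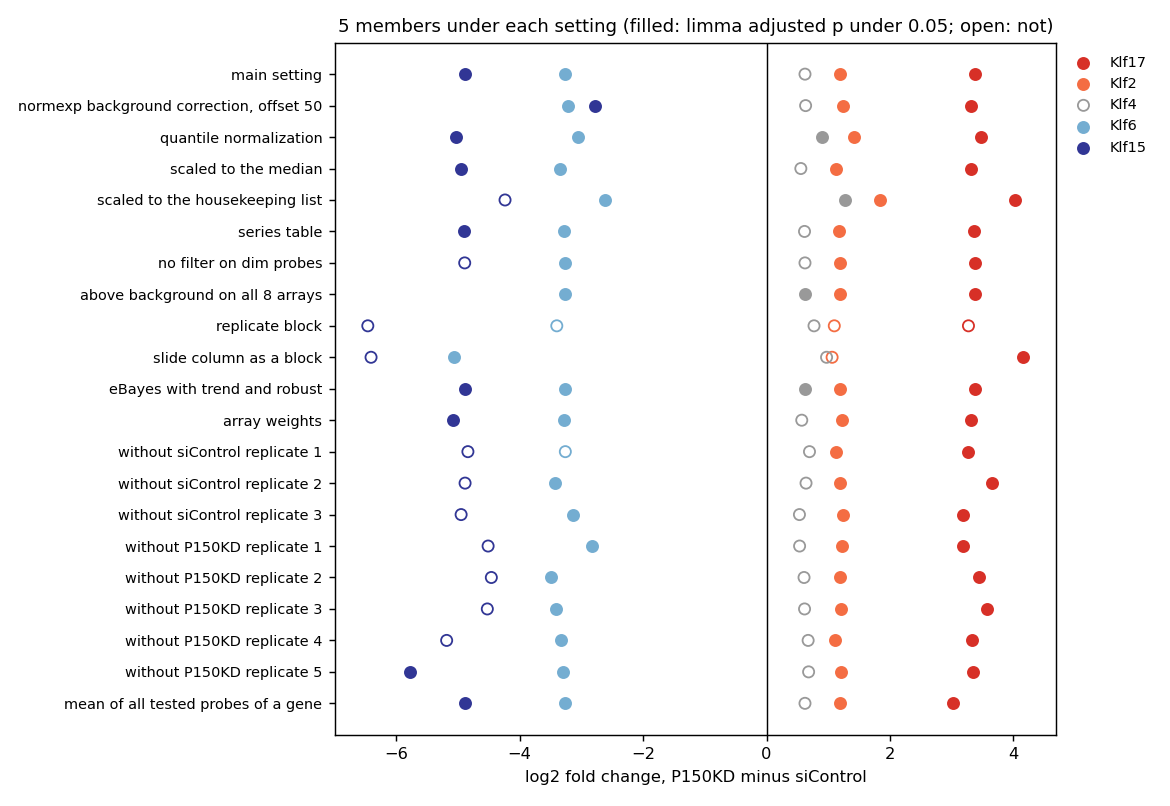
Log2 change of Klf2, Klf4, Klf6, Klf15 and Klf17 under each way of processing the arrays, each array left out in turn included, with filled points where the adjusted p passed 0.05. Klf2 and Klf17 stayed above 0 and Klf6 and Klf15 below 0 in the settings shown, and none of the 5 passed in every setting. Klf2 is open with both blocks, Klf17 with the replicate block, and Klf6 with the replicate block and without siControl replicate 1.

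For each member that passed and was well above background on all 8 arrays, the genes with the closest centred log2 profile were named among 11283 genes above background on all 8 arrays. Closeness is the root mean square distance between the 2 profiles over the arrays, and no test applies because changed genes resemble one another. Klf2 was closest to Rdm1 (distance 0.12), Bri3bp (0.14) and 2610318N02Rik (0.14), where the root mean square of the Klf2 profile itself is 0.59. Klf17 was closest to Tdpoz7 (0.24), Ficd (0.29) and Rexo1 (0.31), with 1.70 for Klf17 itself. Klf6 was closest to Cpxm1 (0.48), Lrrfip1 (0.48) and Patl2 (0.50), with 1.75 for Klf6 itself.

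The remaining Krüppel-like and SP factors, which share the zinc finger domain and bind similar sequence, gave 11 tested genes of 17 listed. Of these, 1 rose and 0 fell, beside 6.67% and 10.3% of all named genes, with a median change of -0.43. At an unadjusted limma p under 0.05, 1 was higher and 1 lower, beside 9215 of all 30348 tested probes. Sp6, a factor of epithelial and tooth development, rose by 2.10 ± 0.49 (SE; limma adjusted p = 0.0304). Its siControl arrays read -0.67, 0.05 and -1.95 and its P150KD arrays 1.57, 0.82, 0.59, 1.77 and 1.49, so the groups did not overlap. Its change within the first slide column was 2.42. No gene of this list passed as risen without siControl replicate 1 or 3, without P150KD replicate 1, 4 or 5, without the filter on dim probes, or when blocking on the slide column. The Klf8 change of -0.05 ± 0.17 (SE), that of Sp1 at 0.06 ± 0.17 and that of Klf11 at -0.70 ± 0.35 did not pass. Klf12 was not well above background on any array.

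The list of LIF pathway and naive pluripotency genes, which feed into Klf2, Klf4 and Klf5 in stem cells, had 24 of 24 genes tested, with 1 risen, 3 fallen and a median change of 0.17. These 4 of 24 stand beside 17.0% of all named genes, a share near the background. Socs3, the feedback inhibitor of LIF and STAT3 signalling, rose from 2.79, 3.29 and 3.03 to 6.76, 5.89, 5.83, 6.44 and 5.79, a change of 3.10 ± 0.28 (SE; limma adjusted p = 0.0019). Stat3, the transcription factor of that pathway, fell from 1.66, 0.32 and 0.22 to -1.32, -3.33, -1.99, -1.26 and -2.31, a change of -2.77 ± 0.56 (SE; limma adjusted p = 0.0197). Neither gene had overlapping groups, and the changes within the first slide column were 3.72 for Socs3 and -2.05 for Stat3. Sox2, the partner of OCT4, fell by 2.90 on the log2 scale (limma adjusted p = 0.0111) and Zfp42, a marker of naive cells, by 0.64 (0.0343), with -2.48 and -0.54 within the first slide column. The count fallen in this list was 2 with quantile normalization, with median scaling and with housekeeping scaling. Housekeeping scaling moved the median change of all named genes from -0.23 to 0.42, a shift about the size of the Zfp42 fall. The Zfp42 fall therefore depends on the scaling. The brightest that did not pass were Dppa3 at -0.27, Tfcp2l1 at -0.32 and Nr5a2 at -0.24.

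Of 30 cofactors and turnover genes of Krüppel-like factors, all tested, 1 rose and 3 fell, with a median change of -0.24. These 4 of 30 lie below the 17.0% of all named genes, and the median is close to theirs of -0.23. Hdac2, a deacetylase of the SIN3 and NuRD complexes, rose by 1.26 ± 0.22 (SE; limma adjusted p = 0.0121), and by 1.23 within the first slide column. Smarcb1, a subunit of the SWI/SNF remodeller, fell by 1.30 (limma adjusted p = 0.00748), Btrc, a substrate receptor of an SCF ubiquitin ligase, by 1.36 (0.0487) and the SIN3 scaffold Sin3b by 0.81 (0.0268). The changes of Smarcb1, Btrc and Sin3b were -1.23, -1.12 and -0.80 within the first slide column. Among the brightest that did not pass were Set at -0.07 and Hdac1 at -0.23.

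A list of 28 genes of the pathways that regulate Krüppel-like factor genes covered glucocorticoid, circadian, TGF-beta, MAP kinase, Hippo and Notch genes. It held activators, inhibitors and targets, and 25 genes were tested. Of these, 0 rose and 3 fell, beside 6.67% and 10.3% of all named genes, with a median change of -0.20. At an unadjusted limma p under 0.05, 2 were higher and 6 lower, beside 9215 of all 30348 tested probes. That background counts probes, whereas the list counts genes by their brightest tested probe. Mapk7, which encodes the ERK5 kinase upstream of Klf2, fell by 1.27 (limma adjusted p = 0.0187). Smad7, the inhibitor of TGF-beta signalling, fell by 1.40 (0.0116) and Dusp6, a phosphatase of growth factor signalling, by 1.32 (0.0415). The changes of Mapk7, Smad7 and Dusp6 were -1.66, -1.28 and -0.79 within the first slide column. Among the brightest, Smad4 at -0.43 and Yap1 at 0.11 did not pass. All 3 falls were lost with housekeeping scaling, with which 4 genes of this list rose. Blocking on the slide column left 0 of the falls in this list, in the cofactor list and in the naive pluripotency list past the threshold.

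**Figure D5:**
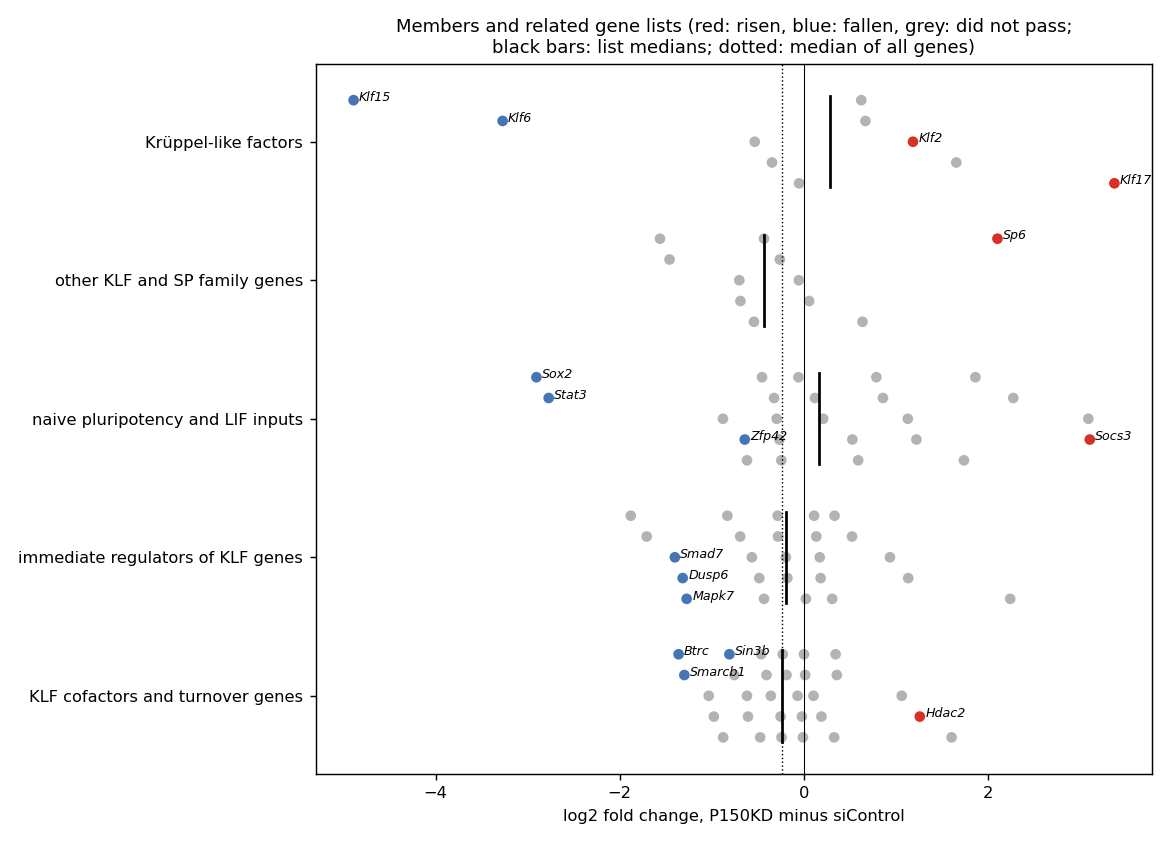
Log2 change, P150KD minus siControl, of the 10 Krüppel-like factors and of the genes of the 4 related lists, 1 point per gene, with risen genes in red, fallen genes in blue and genes that did not pass in grey. Black bars are list medians, from -0.43 for the other KLF and SP genes to 0.29 for the 10 members, and the dotted line is the median of all named genes at -0.23.

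Markers of the embryo and of other cell types were read on the same arrays. Their counts stand beside 6.67% risen and 10.3% fallen of all named genes. At an unadjusted limma p under 0.05 there were 9215 of the 30348 tested probes. All 10 morula markers were tested, 2 fell (Krt18 and Tead4) and 0 rose in limma (3 lower and 0 higher at an unadjusted p under 0.05). All 10 were lower on average, with a median change of -0.54 and changes within the first slide column of -3.82 for Krt18 and -0.70 for Tead4. Their sum ran from 655 to 677 times the 75th percentile on the siControl arrays and from 413 to 532 times on the P150KD arrays. The median change of all named genes was -0.23 with this scaling and 0.42 with the housekeeping genes. The direction and size of the morula markers' median and sums therefore depend on the scaling, and they were not read with the housekeeping genes. Of cumulus and granulosa cell markers 4 of 12 were tested and 0 passed (0 at an unadjusted p under 0.05), their summed signal was 1.73 to 3.19 in siControl and 1.39 to 2.33 in P150KD, and Fshr, Has2, Ptx3, Tnfaip6 and Inhba were not well above background on any array. Of sperm markers 5 of 10 were tested and 0 passed with limma (1 at an unadjusted p under 0.05), with sums of 0.187 to 0.637 and 0.230 to 1.94, and Akap4, Spem1 and Oaz3 were not well above background on any array. Leukocyte markers gave 7 tested of 12, of which Coro1a, Cd74 and Srgn rose (3.15, 1.65 and 2.17 within the first slide column), with sums of 4.48 to 14.0 and 8.56 to 12.5, while Ptprc, Lyz2, Laptm5 and Tyrobp were not well above background on any array. Endothelial markers, of interest because Klf2 and Klf4 are read in endothelium, gave 5 tested of 8, of which Tie1 rose (2.80 within the first slide column), with sums of 2.06 to 2.51 and 2.07 to 8.37, while Emcn was not well above background on any array. The part of these markers in the changes of the Krüppel-like factors was not tested.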

How the data were processed

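Per the labels, total RNA of 10 morulae per array was linearly amplified in 2 rounds, and 5.0 ug of it was labelled with Cy3. Scans were read by the authors in Agilent Feature Extraction 10.5.1, per the file headers, which give the processed signal as an intensity with background subtracted and spatial detrending, without scaling between arrays. The deposited series table holds log2 values on the same 75th percentile scale, with each probe's median set to 0, as checked against the scanner files. The normexp setting started from the median signal and the median background of the spots instead. The other measures used, per the file headers, are flags.

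Spots of a probe were averaged, without outlier-flagged spots where another remained, the log2 was taken and the array's 75th percentile subtracted. Probes well above background on at least 3 of 8 arrays, whatever the group, were tested with limma 3.58.1 in R 4.3.3 (two-sided, Benjamini-Hochberg over 30348 probes). The brightest tested probe stood for a gene. The log2 ratios of pairs used scipy 1.17.1. Between 50.1% and 55.9% of spots were well above background, and the number of arrays limits the precision. Symbols came from the RefSeq table of GRCm38.p6 by accession. Of the 55681 probes, 27235 received a symbol, and those without one included 1450 probes that carry a RefSeq accession. The RefSeq promoter table matched 8 of 10 members.

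The members and the lists were chosen with earlier results of these data known. Named genes were Chaf1a, all members, the members of each list past the threshold (the 6 with the smallest p where more passed) with up to 3 of the brightest that did not pass, and the 3 closest profiles of each changed member above background on all 8 arrays; some genes this rule names are not reported here. Alternatives were normexp background correction (offset 50), quantile, median, housekeeping and series-table values, 2 other filters, the replicate number and slide column as blocks, trended and robust variance, array weights, the mean of a gene's probes, and leaving out each array. Changes within 1 slide column were added after the data were seen. The procedure was tested on simulated data.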

Additional observations from a re-analysis of the deposited data

Results flagged for a closer look

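Among the 5 P150KD arrays, 3 of the 12 probes checked (the 11 member probes and Chaf1a) had an array far from the others, by a gap of more than 0.71 of the group's range; chance flags about 1 in 20 groups. P150KD replicate 4 stood above the others for Klf2, at 7.02, with a gap of 0.802 of the range. P150KD replicate 1 stood below the others for Klf5, at 3.43 (0.729), and for Klf6, at -0.37 (0.724). The changes without these arrays are given with each gene, and the direction of Klf2 and Klf6 held without them.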

How the results depend on the processing

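The main settings called 4199 probes. Leaving out 1 array gave 1684 to 3793, with 1684, 2258 and 2183 without siControl replicates 1, 2 and 3, and array weights gave 5911. The slide column as a block gave 701. With the replicate number as a block, 0 probes passed in limma (6376 at an unadjusted p under 0.05), so no call was kept. Over all tested probes, the deviations of same-numbered arrays had correlations of -0.01, -0.07 and -0.02. Such correlations cannot exclude a weak pairing or one limited to some genes, and the labels do not say whether equal numbers pair the groups. Under the replicate block, P150KD replicates 4 and 5 have no control of the same number, so the estimates rest on replicates 1 to 3 of each group. Klf2 was then 1.10 (limma adjusted p = 0.155), Klf17 3.27 (0.143), Klf6 -3.40 (0.165) and Klf15 -6.46 (0.0954). The Klf15 value rests on P150KD arrays where Klf15 was not well above background.

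Of the 2 members risen, 0 passed with the replicate block and 1 with the slide column block, and 2 passed with every array left out in turn. Of the 2 fallen, 1 passed with housekeeping scaling, without a filter on dim probes, among probes above background on all 8 arrays (where Klf15 was not tested) and with the slide column block, 0 passed with the replicate block, and 0 to 2 passed when arrays were left out. The members' median was 0.94 with housekeeping scaling and -0.19 to 0.41 when arrays were left out, and its sign also turned with the slide column block (-0.15) and with array weights (-0.065). Among other KLF and SP genes, the count risen was 2 with housekeeping scaling, 0 without a filter and with either block, and 0 to 1 with arrays left out. Among cofactors, the count risen was 5 with housekeeping scaling and 0 with either block, and the count fallen was 1 with quantile normalization, 0 with housekeeping scaling and either block, 5 on all 8 arrays and with array weights, 6 with trended and robust variance, and 1 to 3 with arrays left out. Among naive pluripotency genes, the count risen was 5 with housekeeping scaling, 2 with the mean of probes, 0 with the replicate block and 1 to 2 with arrays left out, and the count fallen was 0 with either block and 1 to 2 with arrays left out. Among regulators, the count risen was 4 with housekeeping scaling, and the count fallen was 0 with housekeeping scaling and either block and 1 to 3 with arrays left out.

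Signs turned for Klf5 (quantile 0.19, housekeeping 0.60, and -0.35 to 0.13 with arrays left out), Klf9 (housekeeping 0.12, and -1.52 to 0.16 with arrays left out), Klf10 (housekeeping 0.31) and Klf13 (slide column block -0.080, and -0.11 to 1.17 with arrays left out), none of which passed. Within the first slide column the log2 ratio changed by 0.090 for Klf2 over Klf4, -3.10 for Klf2 over Klf17, 1.48 for Klf4 over Klf5 and -4.67 for Klf5 over Klf17. The causes were not tested. With 1 array left out the exact test of a ratio cannot reach 0.05. The planned slide block was not run, since all arrays lie on 1 slide.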

Other observations

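P150KD replicate 1, the array that shares its slide column with the controls, held the lowest Chaf1a level of the 5 knockdown arrays (-1.71), the highest Klf4 level (6.88) and the highest level on the brighter Klf17 probe (4.41), the lowest Klf6 level (-0.37) and the highest Socs3 level (6.76). On the dimmer Klf17 probe it was not the highest, at 0.84 against 0.86 on replicate 4 and 1.47 on replicate 5. Chaf1a was nearly as low on replicate 4 (-1.69), which held the highest Klf2 level (7.02) and not the lowest Klf6 level (1.66). These are values of single arrays that were picked after seeing them, and a relation with the depth of the knockdown was not tested.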
